A study of Mus musculus with 9 samples.

Results

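Imprinted growth-control genes are described here in long-term haematopoietic stem cells of mouse bone marrow, by their signal on 9 expression arrays. The set named 10 genes, Plagl1, Igf2, Igf2r, H19, Dlk1, Meg3, Grb10, Peg3, Ndn and Mest, and a gene counted as measured where a probe set carried its symbol alone. This held for 9 of the 10, among 22180 genes measured in all. H19 shared its probe set with a microRNA gene and was not analysed here. Plagl1 had 2 probe sets, and each other member had 1.

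The cells came from C57BL/6 marrow by a sort for Sca-1 and c-kit on cells without lineage markers, CD34 or CD135, and each of 3 groups had 3 biological replicates. The first group came from MxCre Jak2VF/+ EZH2-/- mice and is called Jak2VF_Ezh2KO, with 1 mutant Jak2 allele and both Ezh2 alleles deleted. The second came from MxCre Jak2VF/+ mice and is called Jak2VF. The third came from control mice and is called WT. All mice, the controls included, were injected with pI-pC when 4 weeks old, in 5 doses that each held 300 µg, and marrow was taken 12 weeks after. MxCre is driven by the promoter of an interferon-induced gene, which pI-pC switches on in many tissues and not in blood cells alone, so cells around the stem cells may carry the alleles too. Whether WT mice carried MxCre, and whether an array held the cells of 1 mouse or of several, the sources used here do not say, and there was no group with Ezh2 deletion on a normal Jak2 background.

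Imprinted genes are transcribed mainly from the allele of 1 parent, as marked by DNA methylation laid down in the germ line. Many act on growth, and paternally expressed genes such as Igf2, Dlk1, Peg3 and Mest often promote growth, whereas maternally expressed ones such as Igf2r, H19 and Grb10 often restrain it. In mouse stem cells of the marrow, the H19-Igf2 and Dlk1-Meg3 regions are known for a part in keeping the cells quiescent. Ezh2, the enzyme of the Polycomb complex PRC2, places a repressive histone mark that is also found at some imprinted regions.

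Over the 9 arrays the median log2 signal ran from 5.51 to 5.67, and arrays correlated with r between 0.898 and 0.968 across probe sets. Jak2VF_Ezh2KO replicates 1 and 2 carried Y-linked signal, at a mean of 6.66 and 6.81 over 3 Y-linked genes, against 3.64 to 4.08 on the other 7 arrays. Xist, a female-specific RNA, read 4.86 and 4.56 on these replicates and 10.84 to 11.31 on the other 7 arrays. Each difference of Jak2VF_Ezh2KO from another group so also compares arrays that differ in sex-linked signal. Ezh2 itself read 8.47, 8.08 and 8.42 in Jak2VF_Ezh2KO, 8.87, 9.09 and 8.78 in Jak2VF, and 8.48, 8.81 and 8.69 in WT. The sources used here do not place its probe set inside or outside the deleted exons, so this signal does not check the deletion. The stem cell marker Kit, the stem cell factor receptor gene, read 9.43 to 10.18 over the 9 arrays. Cd34, whose protein the gate excluded, read 9.91 to 10.68. Receptor genes of the olfactory and vomeronasal epithelia, taken as silent in marrow, served as a description of unspecific signal, and the 95th percentile of their mean signals was 6.10 over 1394 genes. Grb10, Ndn and Meg3 had means above this value, and the other 6 measured members, Plagl1, Igf2, Igf2r, Dlk1, Peg3 and Mest, lay within the range of the receptor genes. A signal within that range does not show whether the gene was transcribed, and since probe sets bind with different strength, levels are compared below only within a probe set.

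Of the 9 measured members, 0 passed the adjusted threshold of 0.05 in any comparison (limma, Benjamini-Hochberg adjustment over 22180 genes). Over all genes the share that passed was 0.0451% for Jak2VF_Ezh2KO against Jak2VF, 0.0225% for Jak2VF_Ezh2KO against WT and 0% for Jak2VF against WT. At an unadjusted p under 0.05, the counts of members were 3, 0 and 2 in these comparisons. Of all genes, 2.91% were higher and 3.99% lower at that value for Jak2VF_Ezh2KO against Jak2VF, 4.54% and 4.06% for Jak2VF_Ezh2KO against WT, and 2.85% and 1.81% for Jak2VF against WT. The members that stood out by their arrays were Grb10, Igf2r and Ndn, which read lowest in Jak2VF. For these 3 of 9, each Jak2VF array lay below each array of both other groups, a pattern that 0.640% of all genes showed, while 1.31% had each Jak2VF array above. The median difference over the 9 members was 0.11 for Jak2VF_Ezh2KO against Jak2VF, where that of all genes was -0.04. It was -0.09 for Jak2VF_Ezh2KO against WT and -0.24 for Jak2VF against WT, where those of all genes were -0.02 and 0.03. The comparisons share groups, so their values are not independent of each other.

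**Figure D1:**
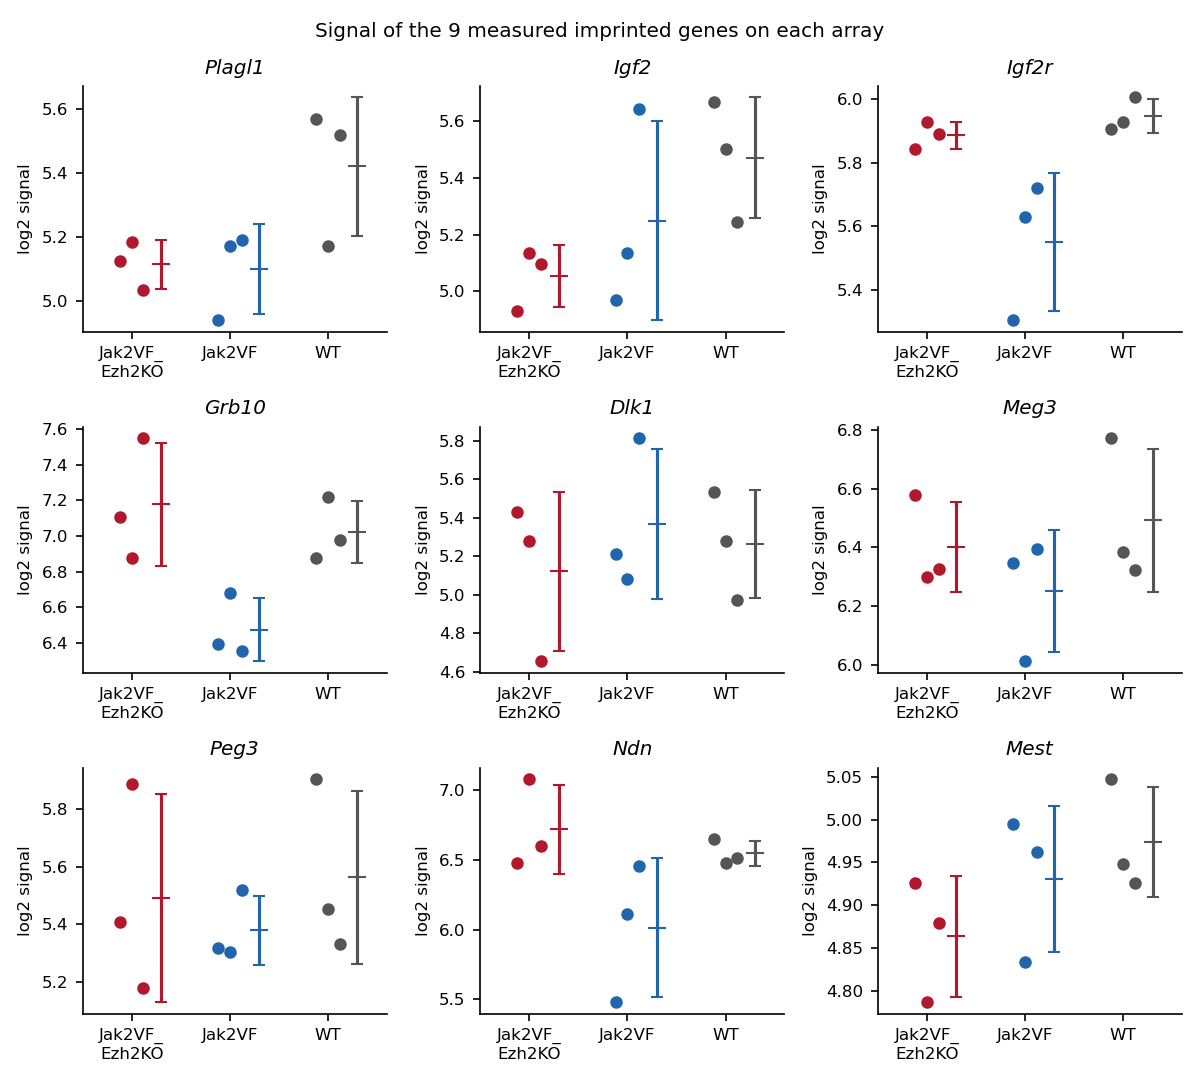
Log2 signal (vertical axis, a scale of its own in each panel) of the 9 measured members on each array, with Jak2VF_Ezh2KO at the left, Jak2VF in the middle and WT at the right. Points are arrays, and the bars beside them are the mean and SD of 3 arrays. Grb10, Igf2r and Ndn have all Jak2VF points below all points of both other groups, and the groups of the other members overlap except Igf2 in Jak2VF_Ezh2KO, at 4.93 to 5.14, against WT, at 5.24 to 5.67.

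Grb10 encodes an adaptor protein that binds the insulin and insulin-like growth factor receptors and dampens their signal. It read 7.11, 6.87 and 7.55 in Jak2VF_Ezh2KO, 6.39, 6.68 and 6.35 in Jak2VF, and 6.88, 7.22 and 6.98 in WT. The Jak2VF arrays were the 3 lowest, and the arrays of the other groups overlapped each other. The difference of Jak2VF_Ezh2KO from Jak2VF was 0.70 with a standard error of 0.19 and a 95% interval of 0.28 to 1.13, or 1.63-fold (limma, adjusted p = 0.416), and groups stood apart in this direction for 4.18% of all genes and in the other for 6.94%. The difference of Jak2VF from WT was -0.55 with a standard error of 0.19 and an interval of -0.97 to -0.13 (adjusted p = 0.924), and groups stood apart in this direction for 2.57% of all genes and in the other for 3.54%. Jak2VF_Ezh2KO and WT differed by 0.15, with an interval of -0.27 to 0.58 (adjusted p = 0.842). Of the Jak2VF_Ezh2KO arrays, the highest was replicate 3, the 1 of its group without Y-linked signal. Taken alone, it differed by 1.08 from Jak2VF and by 0.53 from WT, as a single array with no spread of its own, and the part of the Y-linked difference was not tested. The arrays hold bulk RNA, so fewer cells that use a gene and less of its RNA per cell cannot be told apart.

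Igf2r encodes the receptor that clears insulin-like growth factor 2 from the cell surface, and in mice it is expressed from the maternal allele in most tissues. It read 5.84, 5.93 and 5.89 in Jak2VF_Ezh2KO, 5.30, 5.63 and 5.72 in Jak2VF, and 5.91, 5.93 and 6.01 in WT. Jak2VF arrays lay lowest and were spread widest, with an SD of 0.22 against 0.04 in Jak2VF_Ezh2KO and 0.05 in WT. The difference was 0.34 ± 0.13 (SE) for Jak2VF_Ezh2KO against Jak2VF (limma, adjusted p = 0.683) and -0.40 ± 0.13 for Jak2VF against WT (adjusted p = 0.924). Jak2VF_Ezh2KO and WT differed by -0.06, with an interval of -0.36 to 0.24. Without Jak2VF replicate 1, the lowest array, the first of these differences was 0.21 and the second -0.27. Airn, the RNA made antisense to Igf2r from the paternal allele, read 4.97, 4.91 and 4.97 in Jak2VF_Ezh2KO, 4.65, 4.84 and 5.06 in Jak2VF, and 5.33, 4.97 and 5.08 in WT, with overlapping groups. Its difference of Jak2VF from WT was -0.27 (adjusted p = 0.924).

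Ndn encodes necdin, a protein that restrains the cell cycle and is known in mouse stem cells as a p53 target that favours quiescence. It read 6.48, 7.08 and 6.60 in Jak2VF_Ezh2KO, 5.48, 6.11 and 6.45 in Jak2VF, and 6.65, 6.48 and 6.52 in WT. Jak2VF replicate 1 lay far below the rest, and replicate 3 lay next to the lowest arrays of both other groups. The difference was 0.71 ± 0.24 (SE) for Jak2VF_Ezh2KO against Jak2VF (limma, adjusted p = 0.581) and -0.53 ± 0.24 for Jak2VF against WT (adjusted p = 0.924). Without Jak2VF replicate 1 these differences were 0.44 and -0.26. Jak2VF_Ezh2KO and WT differed by 0.17, with an interval of -0.37 to 0.72 (adjusted p = 0.866).

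In a contrast chosen because these 3 genes read lowest in Jak2VF, and so no independent test of that, Jak2VF was set against the mean of both other groups. Grb10 differed by -0.63 ± 0.16 (SE), Igf2r by -0.37 ± 0.12 and Ndn by -0.62 ± 0.21 (limma, adjusted p = 0.802, 0.933 and 0.933), and of all genes 0.00902% passed. None of the 3 passed. Without Jak2VF replicate 1 the differences were -0.35 for Ndn and -0.24 for Igf2r. Beside this, 3 of 11 measured stem cell markers had each Jak2VF array below all others, as did 0.640% of all genes. These were Procr, Mecom and Mllt3, named here after their values were seen. For Mecom the margin was small, with 7.164 in Jak2VF replicate 3 and 7.168 in Jak2VF_Ezh2KO replicate 2. The 11 include Cd34 and Flt3, the CD135 gene, whose proteins the gate excluded. For Jak2VF against both other groups, 7 of the 11 differences were negative and 4 positive. The largest positive one was 0.38, for Cd34. The mean over all 11 ran from 7.62 to 7.74 in Jak2VF_Ezh2KO, from 7.50 to 7.68 in Jak2VF and 7.75 to 7.85 in WT. The mean over 13 stroma and endothelium markers ran from 5.24 to 5.34 in Jak2VF_Ezh2KO, from 5.25 to 5.45 in Jak2VF and from 5.27 to 5.31 in WT. Of these 13, 1 had each Jak2VF array above all others, Pdgfrb, also named after its values were seen. It read 7.13, 6.48 and 7.19 in Jak2VF_Ezh2KO, 7.29, 7.27 and 7.78 in Jak2VF, and 6.17, 7.23 and 6.21 in WT, while Col1a2 differed by -0.71 in this contrast with overlapping groups (limma, adjusted p = 0.933). The mean over 15 markers of mature blood cells and their precursors ran from 6.49 to 6.88 in Jak2VF_Ezh2KO. It ran from 6.65 to 6.86 in Jak2VF and from 6.30 to 6.50 in WT. In the contrast of Jak2VF with both other groups, 9 of the 15 differences were positive and 6 negative, the lowest being -0.49 for Klf1. Of the 15, 2 had each Jak2VF array above all others, as did 1.31% of all genes. Itga2b, 1 of these and also named after its values were seen, read 8.07, 8.51 and 8.31 in Jak2VF. It read 7.08, 6.59 and 6.85 in Jak2VF_Ezh2KO and 6.86, 7.41 and 7.10 in WT. It passed for Jak2VF_Ezh2KO against Jak2VF, at -1.45 (limma, adjusted p = 0.0441). For Jak2VF against WT, 5 of the 15 were higher and 0 lower at an unadjusted p under 0.05, beside 2.85% higher and 1.81% lower of all genes. The part of these cell types in the values of Grb10, Igf2r and Ndn was not tested.

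**Figure D2:**
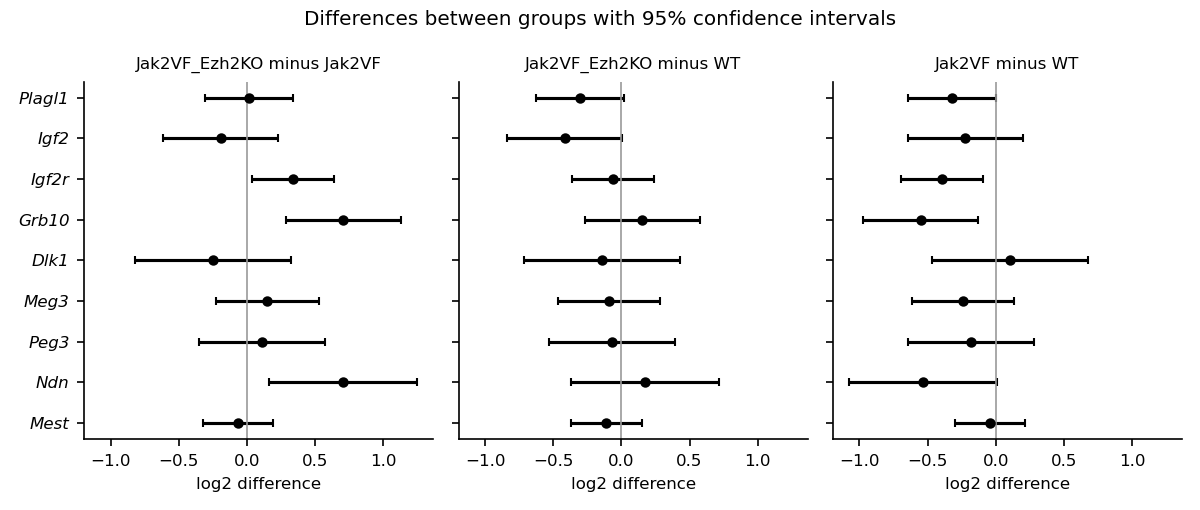
Log2 difference (horizontal axis) of each measured member in 3 comparisons, as the estimate and its 95% confidence interval from the moderated fit. For Jak2VF_Ezh2KO minus Jak2VF the intervals of Igf2r, Grb10 and Ndn lie above 0, for Jak2VF minus WT those of Igf2r and Grb10 lie below 0, and for Jak2VF_Ezh2KO minus WT all 9 include 0. Plagl1 is shown by its brighter probe set alone. The intervals are not adjusted for the number of genes.

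The 3 genes that read lowest in Jak2VF start from promoters of different make-up, shown here as the 250 bases before the annotated start on the gene's strand, with each CpG, the site of DNA methylation, in capitals (RefSeq, GRCm38.p6). Grb10 has 2 annotated starts, and the upstream window, chr11:12037421-12037670 on the minus strand, holds 40 CpG, more than 98.7% of all promoter windows. The Igf2r window, chr17:12769707-12769956 on the minus strand, holds 27 CpG, more than 91.4% of windows. The Ndn window, chr7:62348027-62348276 on the plus strand, holds 5, against a median of 6 over all windows. The Plagl1 window, chr10:13090582-13090831 on the plus strand, holds 19 and is shown for comparison. The window of the downstream start of Grb10 has 8, and which start the probe set reads is not known here.
Grb10: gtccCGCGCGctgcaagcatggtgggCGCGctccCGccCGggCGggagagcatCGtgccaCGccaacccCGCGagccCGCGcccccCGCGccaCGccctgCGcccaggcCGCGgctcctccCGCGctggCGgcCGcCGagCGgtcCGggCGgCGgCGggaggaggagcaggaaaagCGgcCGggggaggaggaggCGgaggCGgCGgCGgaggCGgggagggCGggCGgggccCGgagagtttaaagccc
Igf2r: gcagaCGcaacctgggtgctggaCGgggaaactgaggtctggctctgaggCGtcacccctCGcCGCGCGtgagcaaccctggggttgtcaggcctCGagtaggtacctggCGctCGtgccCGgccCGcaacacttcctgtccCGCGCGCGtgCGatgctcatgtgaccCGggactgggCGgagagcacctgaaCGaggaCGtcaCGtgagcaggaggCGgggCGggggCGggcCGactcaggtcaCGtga
Ndn: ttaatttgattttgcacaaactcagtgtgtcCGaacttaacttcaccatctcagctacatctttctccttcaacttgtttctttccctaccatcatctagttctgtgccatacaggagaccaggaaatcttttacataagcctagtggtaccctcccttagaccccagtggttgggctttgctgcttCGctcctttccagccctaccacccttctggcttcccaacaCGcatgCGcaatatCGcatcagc
Plagl1: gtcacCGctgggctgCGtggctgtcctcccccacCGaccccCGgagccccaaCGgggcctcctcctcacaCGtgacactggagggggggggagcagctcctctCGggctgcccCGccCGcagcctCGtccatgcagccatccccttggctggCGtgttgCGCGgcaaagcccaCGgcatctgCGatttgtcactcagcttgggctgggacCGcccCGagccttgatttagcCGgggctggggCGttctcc

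Short motifs were searched on both strands of these windows, 16 for the 9 measured members and 32851 in all. The spaced palindrome TTCNNNGAA, a form bound by STAT factors, was in 0 of the 16 windows and in 7.02% of all windows. The motif TGCCGC, which the imprint-keeping factor Zfp57 binds when methylated, was in 4 of 16, namely 1 of Plagl1, 1 of Meg3 and 2 overlapping windows of Mest, and in 8.68% of all windows. The motif GGGGCCCC, a core known for Plagl1, was in the Peg3 window and in 0.889% of all windows. The Grb10, Igf2r and Ndn windows held none of the 3 motifs. In the windows that held a motif, no 2 motifs overlapped. A match describes letters and not binding.

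Plagl1 encodes a zinc-finger transcription factor, also known as Zac1, that acts on other imprinted genes in mouse embryos, among them Igf2 and H19. Its brighter probe set read 5.12, 5.18 and 5.03 in Jak2VF_Ezh2KO, 4.94, 5.17 and 5.19 in Jak2VF, and 5.57, 5.17 and 5.52 in WT. WT replicates 1 and 3 were the highest arrays, whereas WT replicate 2 lay among those of the mutant groups. The difference was 0.01 for Jak2VF_Ezh2KO against Jak2VF, with an interval of -0.31 to 0.34, and -0.31 for Jak2VF_Ezh2KO against WT, with an interval of -0.63 to 0.02. For Jak2VF against WT it was -0.32, with an interval of -0.64 to 0.0026 (limma, adjusted p = 0.994, 0.597 and 0.924).

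The dimmer Plagl1 probe set read 4.38, 2.50 and 3.92 in Jak2VF_Ezh2KO, 3.85, 3.46 and 3.33 in Jak2VF, and 5.76, 3.65 and 5.45 in WT. The same WT arrays, replicates 1 and 3, stood above all others, and the spread was wide, with an SD of 0.98 in Jak2VF_Ezh2KO, 0.27 in Jak2VF and 1.14 in WT. This probe set had means of 3.60, 3.55 and 4.96 in these groups, where the median of the receptor genes' mean signals was 3.95. It too lay within the range of the receptor genes. With every probe set tested, its difference was -1.36 for Jak2VF_Ezh2KO against WT, with an interval of -2.65 to -0.07 (limma, adjusted p = 0.566). It was -1.41 for Jak2VF against WT, with an interval of -2.70 to -0.12 (adjusted p = 0.926). Both intervals lay below 0 and are not adjusted for the number of probe sets. The difference was 0.05 for Jak2VF_Ezh2KO against Jak2VF. The mean signal of the receptor genes was 3.95, 4.05 and 3.91 in Jak2VF_Ezh2KO, 4.31, 3.83 and 3.92 in Jak2VF, and 4.22, 3.87 and 4.32 in WT, so WT replicates 1 and 3, the arrays where Plagl1 read highest, were among the 3 highest here too, with Jak2VF replicate 1. With this mean as a covariate, chosen after seeing the data, the difference of the brighter probe set was -0.28 for Jak2VF_Ezh2KO against WT and -0.30 for Jak2VF against WT. That of the dimmer probe set was -1.03 and -1.19, closer to 0 than without the covariate. The part of array-wide signal in the Plagl1 values was not tested beyond this. Without WT replicate 2 the differences of the dimmer probe set were -2.01 and -2.06, and without Jak2VF_Ezh2KO replicate 2 that of Jak2VF_Ezh2KO from WT was -0.81.

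**Figure D3:**
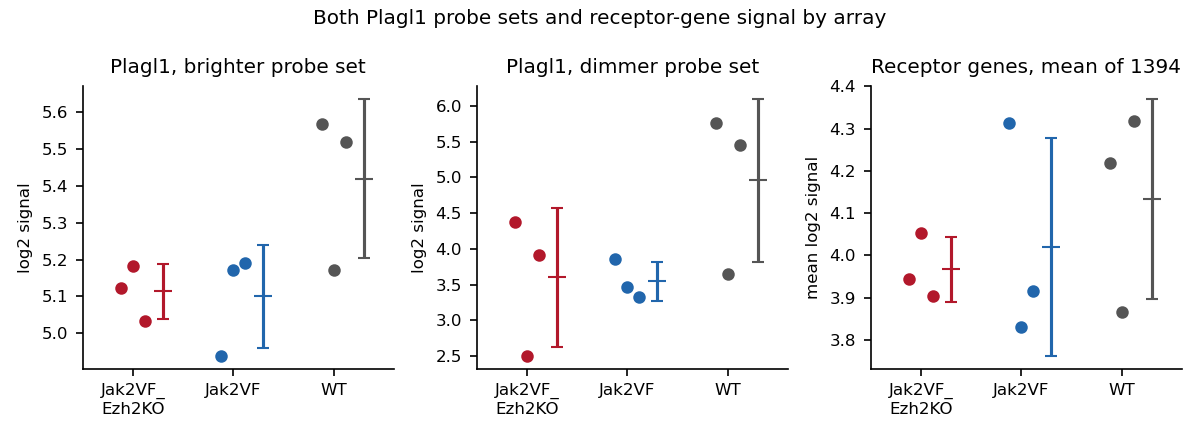
Log2 signal of the brighter and the dimmer Plagl1 probe set and the mean log2 signal of 1394 receptor genes (vertical axes, each with its own scale) on each array, with Jak2VF_Ezh2KO at the left, Jak2VF in the middle and WT at the right. Points are arrays, and bars are the mean and SD of 3 arrays. WT replicates 1 and 3 are high in all 3 panels, and Jak2VF replicate 1 reads 4.31 for the receptor genes and 4.94 for the brighter probe set.

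Igf2 encodes insulin-like growth factor 2, the ligand that Igf2r clears. It read 4.93, 5.14 and 5.10 in Jak2VF_Ezh2KO, 4.97, 5.14 and 5.64 in Jak2VF, and 5.67, 5.50 and 5.24 in WT. All Jak2VF_Ezh2KO arrays lay below all WT arrays, as for 6.62% of all genes, and the Jak2VF arrays overlapped both. The difference of Jak2VF_Ezh2KO from WT was -0.42 ± 0.19 (SE), with an interval of -0.84 to 0.0050 (limma, adjusted p = 0.584). It was -0.19 for Jak2VF_Ezh2KO against Jak2VF and -0.22 for Jak2VF against WT (adjusted p = 0.878 and 0.926).

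The microRNA gene Mir483 lies within Igf2 and Mir335 within Mest, and their mature arms are shown with the seed, bases 2 to 8, in capitals (RefSeq, GRCm38.p6). The arms of Mir483 lie on the minus strand at chr7:142654968-142654989 (5p) and chr7:142654932-142654952 (3p), and those of Mir335 on the plus strand at chr6:30741314-30741336 (5p) and chr6:30741354-30741375 (3p). The probe sets are listed by gene, so their values are not those of single mature arms.
mmu-miR-483-5p: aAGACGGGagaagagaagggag
mmu-miR-483-3p: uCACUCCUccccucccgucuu
mmu-miR-335-5p: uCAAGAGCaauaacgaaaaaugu
mmu-miR-335-3p: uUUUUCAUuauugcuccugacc
The 4 arms have 4 different seeds. Mir483 read 7.59, 7.48 and 7.71 in Jak2VF_Ezh2KO, 8.10, 7.31 and 8.33 in Jak2VF, and 8.22, 7.92 and 8.17 in WT. As for Igf2, all Jak2VF_Ezh2KO arrays lay below all WT arrays and Jak2VF overlapped both, with a difference of Jak2VF_Ezh2KO from WT of -0.51 (limma, adjusted p = 0.586). Mir335 read 5.16, 5.78 and 4.80 in Jak2VF_Ezh2KO, 5.29, 5.08 and 5.20 in Jak2VF, and 5.15, 4.53 and 4.72 in WT, with overlapping groups. Of the 12 microRNA genes listed in or beside the members, 4 had a probe set of their own, and 0 of these passed in any comparison.

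Among 18 measured genes of the insulin-like growth factor axis and the Plag family, 1 passed, Plag1, a zinc-finger factor related to Plagl1 and known to act on the human IGF2 promoter. It rose by 1.95 in Jak2VF_Ezh2KO against Jak2VF (limma, adjusted p = 0.0159), a call lost without any 1 of Jak2VF replicates 1, 2 and 3 and Jak2VF_Ezh2KO replicate 2 (adjusted p = 0.104, 0.0961, 0.0990 and 0.0904). It read 7.67, 8.22 and 8.50 in Jak2VF_Ezh2KO, 6.23, 6.14 and 6.15 in Jak2VF, and 7.48, 7.33 and 7.69 in WT, so that its Jak2VF arrays were the lowest, as for Grb10, Igf2r and Ndn, whereas those of Igf2 were not. Over the 9 arrays, the signal of Plag1 correlated with that of Grb10 at r = 0.83, of Igf2r at 0.75, of Ndn at 0.72 and of Igf2 at -0.17. After the group means were taken off, these became 0.24, 0.10, 0.11 and 0.02, so the likeness lay between the groups and much less within them. Grb10, Igf2r and Ndn were grouped by their low Jak2VF arrays, which Plag1 shares, so a high r over all arrays follows from that choice. Among the 9 members, the value largest in size after group means were taken off was -0.64, for Dlk1, which had -0.46 over all arrays. The ligand gene Igf1 read 5.63, 5.54 and 5.81 in Jak2VF_Ezh2KO, 5.70, 4.86 and 5.30 in Jak2VF, and 5.88, 5.86 and 5.79 in WT, so that all Jak2VF arrays lay below all WT arrays and Jak2VF_Ezh2KO overlapped both. It differed by -0.56 for Jak2VF against WT and by 0.38 for Jak2VF_Ezh2KO against Jak2VF (adjusted p = 0.924 and 0.743). The receptor gene Igf1r, through which both ligands act, differed by 0.00, 0.08 and 0.08 for Jak2VF_Ezh2KO against Jak2VF, Jak2VF_Ezh2KO against WT and Jak2VF against WT (adjusted p = 0.997, 0.905 and 0.968). Irs2, a docking protein below the insulin and insulin-like growth factor receptors, read 6.81, 7.07 and 6.38 in Jak2VF_Ezh2KO, 6.13, 6.29 and 6.59 in Jak2VF, and 5.99, 6.22 and 5.53 in WT. Its difference of Jak2VF_Ezh2KO from WT was 0.84, with groups apart in this direction for 6.28% of all genes (adjusted p = 0.431). The other genes of this list that the rule named were Igfbp4, a binding protein, at -0.43 and Lin28b, an RNA-binding fetal factor, at 0.44 for Jak2VF_Ezh2KO against Jak2VF, and Irs1 at -0.19 for Jak2VF_Ezh2KO against WT (adjusted p = 0.684, 0.711 and 0.713).

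Dlk1 and Meg3 lie in 1 imprinted region, Dlk1 as the paternally expressed gene of a membrane protein related to Notch ligands and Meg3 as a maternally expressed long noncoding RNA. Dlk1 read 5.43, 5.28 and 4.65 in Jak2VF_Ezh2KO, 5.21, 5.08 and 5.81 in Jak2VF, and 5.53, 5.28 and 4.97 in WT. The groups overlapped, and the difference was -0.25 for Jak2VF_Ezh2KO against Jak2VF, with an interval of -0.82 to 0.32, and -0.14 for Jak2VF_Ezh2KO against WT. Jak2VF_Ezh2KO replicate 3, the array of its group without Y-linked signal, read lowest. Without it these differences were -0.014 and 0.093, and that array alone differed by -0.72 from Jak2VF and by -0.61 from WT. Without Jak2VF replicate 3, the highest array, the difference of Jak2VF_Ezh2KO from Jak2VF was -0.025. Meg3 read 6.58, 6.30 and 6.32 in Jak2VF_Ezh2KO, 6.35, 6.01 and 6.40 in Jak2VF, and 6.77, 6.38 and 6.32 in WT, and its groups overlapped as well. Its differences were 0.15, -0.09 and -0.24 for Jak2VF_Ezh2KO against Jak2VF, Jak2VF_Ezh2KO against WT and Jak2VF against WT (limma, adjusted p = 0.893, 0.900 and 0.924). Without Jak2VF replicate 2, its lowest array, the first was 0.029 and the third -0.12. Without WT replicate 1, its highest array, the second was 0.047 and the third -0.10.

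Peg3, a paternally expressed zinc-finger gene linked to cell survival and maternal behaviour in mice, read 5.41, 5.89 and 5.18 in Jak2VF_Ezh2KO, 5.32, 5.30 and 5.52 in Jak2VF, and 5.90, 5.45 and 5.33 in WT. Its groups overlapped, with differences of 0.11, -0.07 and -0.18 in the 3 comparisons, in the same order (limma, adjusted p = 0.945, 0.943 and 0.939). Without WT replicate 1, the highest WT array, the difference of Jak2VF from WT was -0.013. Mest, a paternally expressed gene of a hydrolase-like protein, read 4.93, 4.79 and 4.88 in Jak2VF_Ezh2KO, 4.995, 4.83 and 4.96 in Jak2VF, and 5.05, 4.95 and 4.93 in WT. Its SDs were 0.07, 0.08 and 0.06 in these groups, the groups overlapped, and its intervals were the narrowest of the members, from -0.32 to 0.19 for Jak2VF_Ezh2KO against Jak2VF and from -0.30 to 0.21 for Jak2VF against WT.

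Among the members themselves, the closest pair over the 9 arrays was Igf2r and Ndn, with r = 0.89, and r = 0.86 after group means were taken off, where Jak2VF replicate 1 was the lowest array for both. Grb10 and Igf2r correlated at 0.68 over all arrays and at 0.04 after group means were taken off. Meg3 and Mest correlated at 0.71, and at 0.91 after group means were taken off. These values describe 9 arrays that share groups and array-wide signal. Of 10173 named genes above the median level, the 5 most like Plagl1 were Sod3, Snhg11, Ccdc78, Tceal3 and Coq8a, with r from 0.89 to 0.91 over the 9 arrays. Those most like Grb10 were Gsta4, Prkag2, Fads3, Rab4a and Efcc1, with r from 0.90 to 0.92. With so many genes and 9 arrays, values of this size are a description only.

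Of 61 further imprinted genes, 52 were measured, and 0 passed in any comparison (limma). Their median difference was -0.04 for Jak2VF_Ezh2KO against Jak2VF, -0.03 for Jak2VF_Ezh2KO against WT and -0.01 for Jak2VF against WT, beside -0.04, -0.02 and 0.03 over all genes. Kcnq1ot1, the long noncoding RNA that silences its neighbours on the paternal chromosome, read 7.41, 7.49 and 7.66 in Jak2VF_Ezh2KO, 7.15, 7.24 and 7.12 in Jak2VF, and 7.76, 7.62 and 7.25 in WT. It was the 1 gene of the 52 with each Jak2VF array below all others, as were 0.640% of all genes. The margin was small, with 7.244 in Jak2VF replicate 2 and 7.2495 in WT replicate 3. Kcnq1ot1 differed by 0.35 for Jak2VF_Ezh2KO against Jak2VF and by -0.37 for Jak2VF against WT (adjusted p = 0.711 and 0.924). Cdkn1c, the neighbour of Kcnq1ot1, encodes the cell cycle inhibitor p57 that keeps mouse stem cells quiescent. It read 6.08, 6.28 and 6.28 in Jak2VF_Ezh2KO, 5.91, 5.55 and 6.34 in Jak2VF, and 6.05, 6.08 and 6.11 in WT, and differed by 0.28 for Jak2VF_Ezh2KO against Jak2VF (adjusted p = 0.799). Mcts2 had the largest difference of the list, 0.88 for Jak2VF_Ezh2KO against Jak2VF and 0.82 for Jak2VF_Ezh2KO against WT (adjusted p = 0.608 and 0.539). It read 6.96, 7.19 and 7.26 in Jak2VF_Ezh2KO, 5.59, 6.69 and 6.49 in Jak2VF, and 5.69, 6.63 and 6.63 in WT, so all Jak2VF_Ezh2KO arrays were the highest. H13, the gene within which Mcts2 lies in mice, read 7.98, 7.91 and 8.41 in Jak2VF_Ezh2KO, 7.68, 8.06 and 7.91 in Jak2VF, and 7.52, 7.91 and 7.55 in WT. Ube3a, a ubiquitin ligase gene imprinted in neurons, differed by -0.38 for Jak2VF_Ezh2KO against WT, and Asb4 by 0.43 for Jak2VF_Ezh2KO against Jak2VF, while Nap1l5 differed by 0.35 for Jak2VF against WT (adjusted p = 0.500, 0.683 and 0.924).

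**Figure D4:**
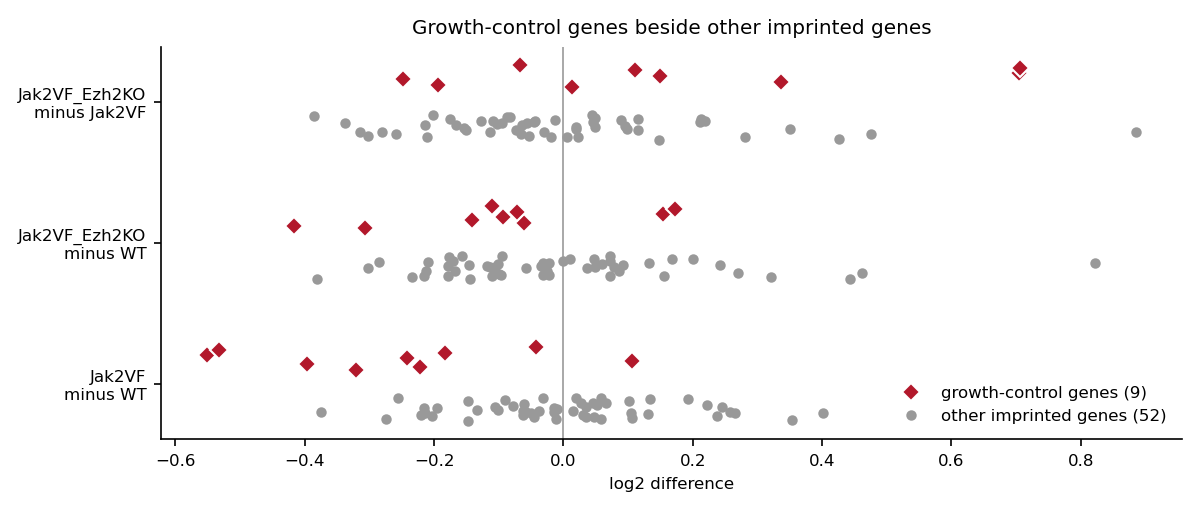
Log2 difference (horizontal axis) in 3 comparisons for the 9 measured growth-control genes (red diamonds) and 52 other imprinted genes (grey points), each mark being 1 gene and its height within a row having no meaning. The diamonds of Grb10 and Ndn, at 0.70 and 0.71 for Jak2VF_Ezh2KO minus Jak2VF, overlap. For Jak2VF minus WT, 8 of the 9 growth-control genes lie below 0, while the 52 others lie 27 below and 25 above 0. Of all 22180 genes, 9802 lie below 0 in that comparison. The genes share arrays, so their signs are not independent of each other.

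Of 20 genes that act on DNA methylation and Polycomb marks at imprinted regions, all measured, 0 passed in any comparison (limma). The list mixes genes that lay down, read or keep these marks with Tet1, Tet2 and Tet3, which oxidise methylated cytosine. For Jak2VF_Ezh2KO against Jak2VF, 16 of the 20 differences were negative, as were 12905 of 22180 over all genes. The median of the 20 was -0.16, beside -0.04 over all genes. Besides Ezh2 at -0.59, the smallest p-values were those of Tet3, which oxidises methylated cytosine, at -0.53, and Uhrf1, which brings the maintenance methyltransferase to new DNA, at -0.55 (adjusted p = 0.411, 0.626 and 0.668). Dnmt1, that methyltransferase, differed by -0.44. For Jak2VF_Ezh2KO against WT, 12 of the 20 differences were negative and 8 positive, with a median of -0.04 beside -0.02 over all genes. For Jak2VF against WT, 16 of the 20 were positive, as were 12378 of 22180 over all genes, with medians of 0.13 and 0.03. The largest difference of Jak2VF from WT was that of Ctcf, the insulator protein that binds the H19-Igf2 control region, at 0.42. It was followed in p by Zfp445 at 0.34 and Dnmt3b at 0.31 (adjusted p = 0.924 each). Without WT replicate 1, the lowest WT array for all 3, Ctcf differed by 0.22 and Zfp445 by 0.15, and without Jak2VF replicate 2 Dnmt3b differed by 0.18.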

How the data were processed

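The authors deposited log2 signals, already processed, for 41345 probe sets on 9 arrays. The submitters' processing notes name Partek 6.6, and background correction, normalization and summary are, step by step, not given in the sources used here. Per the labels' protocols, 10 ng of RNA was amplified and labelled with biotin. The platform annotation gave 1 symbol to 23521 probe sets, several to 1814 and none to 16010. For the 1082 genes with several probe sets the one with the highest mean signal was used, giving 22180 genes.

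Differences were tested in R 4.3.3 with limma 3.58.1, by lmFit and an untrended eBayes over all 9 arrays (6 residual degrees of freedom), Benjamini-Hochberg adjustment over all genes and a threshold of 0.05. The 3 arrays per group limit the precision. The labels call the replicates biological and do not tie them to single mice. Standard errors and intervals are those of the fit, and folds are powers of 2 of the log2 difference. The fit was tested on simulated data. The alternatives tried are given in the closing section.

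The text names all members, 3 genes of smallest p per comparison in each of the imprinted, growth factor axis and upkeep lists, and Cdkn1c, Plag1, Igf1r and Ezh2. It also names the 5 genes most like Plagl1 and most like the member of smallest p. Members and lists were chosen with earlier results of these data known. RefSeq sequences (GRCm38.p6) were used for promoters and microRNAs, and no coordinates were assigned to probe sets, since the sources used here name no build for them.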

Additional observations from a re-analysis of the deposited data

How the results depend on the processing

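The count of members past the threshold was 0 in each comparison under every alternative run, as was that of the other imprinted genes. These were an intensity trend with robust variance, quantile normalization, centring on array medians, unmoderated least squares, dim genes left out, the 2 groups alone, array weights, every probe set, the replicate block, a sex covariate, an adjusted p under 0.1, and each array left out. The receptor-gene covariate and the fit without Jak2VF_Ezh2KO replicates 1 and 2, which carry Y-linked signal, were chosen after seeing the data. Over 585 alternative values of 30 member differences, 567 kept their direction, 0 passed, and the smallest adjusted p was 0.167, for Grb10 in Jak2VF_Ezh2KO against Jak2VF. With dim genes left out, Plagl1, Igf2, Dlk1, Peg3 and Mest had no value. The 567 is no measure of stability, since several settings leave a difference unchanged by construction. These are the intensity trend, unmoderated least squares, dim genes left out, the 2 groups alone and the replicate block. Leaving out an array of a group not compared is another, and so is the sex covariate for Jak2VF against WT.

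For Jak2VF_Ezh2KO against Jak2VF, Plagl1 turned to -0.067 and Peg3 to -0.20 with the sex covariate, and to the same values without Jak2VF_Ezh2KO replicates 1 and 2. In both settings Jak2VF_Ezh2KO replicate 3 alone sets the value of its group, so these are differences of a single array and not 2 separate checks. The part of the Y-linked difference was not tested. For Jak2VF against WT Mest turned to 0.0079 with quantile normalization, and the cause was not tested. With each array left out in turn, the differences that changed sign for Jak2VF_Ezh2KO against Jak2VF ran from -0.335 to 0.0029 for Igf2, from -0.087 to 0.27 for Peg3 and from -0.068 to 0.059 for Plagl1. For Jak2VF_Ezh2KO against WT they ran from -0.30 to 0.093 for Dlk1, from -0.033 to 0.31 for Grb10, from -0.18 to 0.047 for Meg3, from -0.0081 to 0.29 for Ndn and from -0.27 to 0.10 for Peg3. For Jak2VF against WT they ran from -0.12 to 0.25 for Dlk1 and from -0.075 to 0.0051 for Mest. Of the 27 member differences in the 3 comparisons, 21 moved by over 1.5 times without some array. The other 6 were those of Grb10 for Jak2VF_Ezh2KO against Jak2VF, of Plagl1 and Igf2 for Jak2VF_Ezh2KO against WT, and of Plagl1, Igf2r and Grb10 for Jak2VF against WT. Of the 27 differences named from the other lists, 16 moved so far, which was computed after seeing the data. The differences of Grb10 ran from 0.52 to 0.86 for Jak2VF_Ezh2KO against Jak2VF and from -0.65 to -0.45 for Jak2VF against WT.

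With the replicate block, Grb10 differed by 0.70 between Jak2VF_Ezh2KO and Jak2VF (limma, adjusted p = 0.478), and the block changed no call. Deviations of same-numbered arrays correlated from -0.23 to 0.48 over the pairs of groups, and those of differently numbered arrays from -0.50 to 0.33.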
